A study of Mus musculus with 36 samples.

Results

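Actb, Actg1, Acta2, Tagln, Tagln2, Cnn2, Tpm1, Tpm2, Tpm4 and Srf are 10 genes of the actin cytoskeleton and of its transcriptional feedback, chosen by symbol from the 55358 genes of the deposited counts. Their RNA was measured by poly(A) RNA sequencing in 36 libraries of murine keratinocytes, the epithelial cells of the epidermis. WT cells, PKP4-KO cells and Rescue cells were each cultured in low-calcium medium (LCM) or in high-calcium medium (HCM), for 24 h or 72 h, the latter medium being the one that makes keratinocytes form junctions and differentiate, with 3 libraries in each of the 12 groups. PKP4-KO cells carry a deletion in Pkp4, which encodes the junction protein plakophilin 4, and Rescue cells are PKP4-KO cells that were transduced with a lentivirus for GFP-tagged PKP4 and selected with puromycin. WT and PKP4-KO keratinocytes were isolated from different newborn pups, Pkp4+/+ and Pkp4-/-, of a C57BL/6N-Pkp4tm1b(EUCOMM)Wtsi line backcrossed to C57BL/6J, so the genotype cannot be told apart from the origin of the cells, and all Rescue cells carry both the deletion and the transgene. The libraries of a group are given as biological replicates with no word on their cultures, so p-values measure the spread between these libraries.

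Actins assemble from monomers into filaments, and monomeric actin holds the coactivators MRTF-A and MRTF-B away from the nucleus. When monomers are used up, the coactivators join serum response factor (SRF) on CArG boxes, short A/T-rich elements, and raise the transcription of actins, tropomyosins, transgelins and calponins. Immediate-early genes such as Fos are driven by SRF together with a different class of partners, the ternary complex factors (TCF). In keratinocytes actin filaments line the cell cortex and hold adherens junctions under tension, and smooth muscle actin and transgelin are better known from smooth muscle and myofibroblasts.

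The CArG box, a pair of C and a pair of G around a core of A and T letters that reads alike on both strands, was searched in RefSeq promoter windows of 300 bases, from 250 bases before to 50 bases after the start. Windows of 8 of the 10 genes were matched, those of Acta2, Actg1, Cnn2, Srf, Tagln2, Tpm1, Tpm2 and Tpm4, and none was matched for Actb and Tagln. A match stood in 3 of the 8 (37.5%), in 1.57% of all 27025 windows and in 1.31% of the 10299 windows of genes tested here. The genes were chosen in part as targets of SRF, so their higher share can come from the choice itself. The window of Acta2 held elements with 1 G or C in the core, which 8.58% of all windows hold. The stretches around the matches are shown because these genes include the members with the largest differences between WT and PKP4-KO cells; capitals mark the elements, and the coordinates are those of GRCm38.p6.
Actg1, chr11:120348551-120348610, minus strand, element 90 bases before the start: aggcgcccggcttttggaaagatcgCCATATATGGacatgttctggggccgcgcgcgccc
Cnn2, chr10:79988519-79988578, plus strand, element 56 bases before the start: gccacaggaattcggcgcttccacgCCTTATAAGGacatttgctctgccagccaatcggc
Srf, chr17:46556190-46556269, minus strand, elements 82 and 62 bases before the start: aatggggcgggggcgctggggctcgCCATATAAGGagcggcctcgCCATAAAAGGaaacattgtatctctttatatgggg
Acta2, chr19:34255374-34255482, minus strand, elements with 1 G or C in the core 84 and 34 bases before the start: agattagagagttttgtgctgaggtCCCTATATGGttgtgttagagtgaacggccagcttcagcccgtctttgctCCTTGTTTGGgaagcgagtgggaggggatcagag
The windows of Tagln2, Tpm1, Tpm2 and Tpm4 held neither form. A match is a string of letters, and no binding was measured.

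Library totals lay between 13602728 and 22467187 counts. Pkp4 counts checked the labels, with 326 to 1443 in WT, 44 to 232 in PKP4-KO and 101 to 273 in Rescue libraries, as did GFP-PKP4, with 1902 to 15325 counts in Rescue libraries and at most 113 in the others. Levels are given as counts scaled to a common library size with TMM factors (CPM, TMM-scaled), and values for the culture conditions follow the order 24 h HCM, 72 h HCM, 24 h LCM and 72 h LCM unless said otherwise. These factors were 0.4813 to 0.5459 in PKP4-KO cells at 72 h HCM and 0.7051 to 1.3922 in all other groups, so directions at 72 h HCM depend on the scaling more than elsewhere. Summed basal keratinocyte markers lay between 23120 and 70120 CPM in each library, and fibroblast markers between 0 and 11.4 CPM. Of the 36 libraries, 7, 1 each in 7 groups, stood apart from the others of their group across all genes, with values shifted towards short genes; this was seen in the data and is not a label. They were PKP4-KO 24 h LCM replicate 1, Rescue 24 h LCM replicate 3, PKP4-KO 72 h LCM replicate 2, Rescue 72 h LCM replicate 2, WT 24 h HCM replicate 2, PKP4-KO 24 h HCM replicate 3 and WT 72 h HCM replicate 3.

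**Figure D1:**
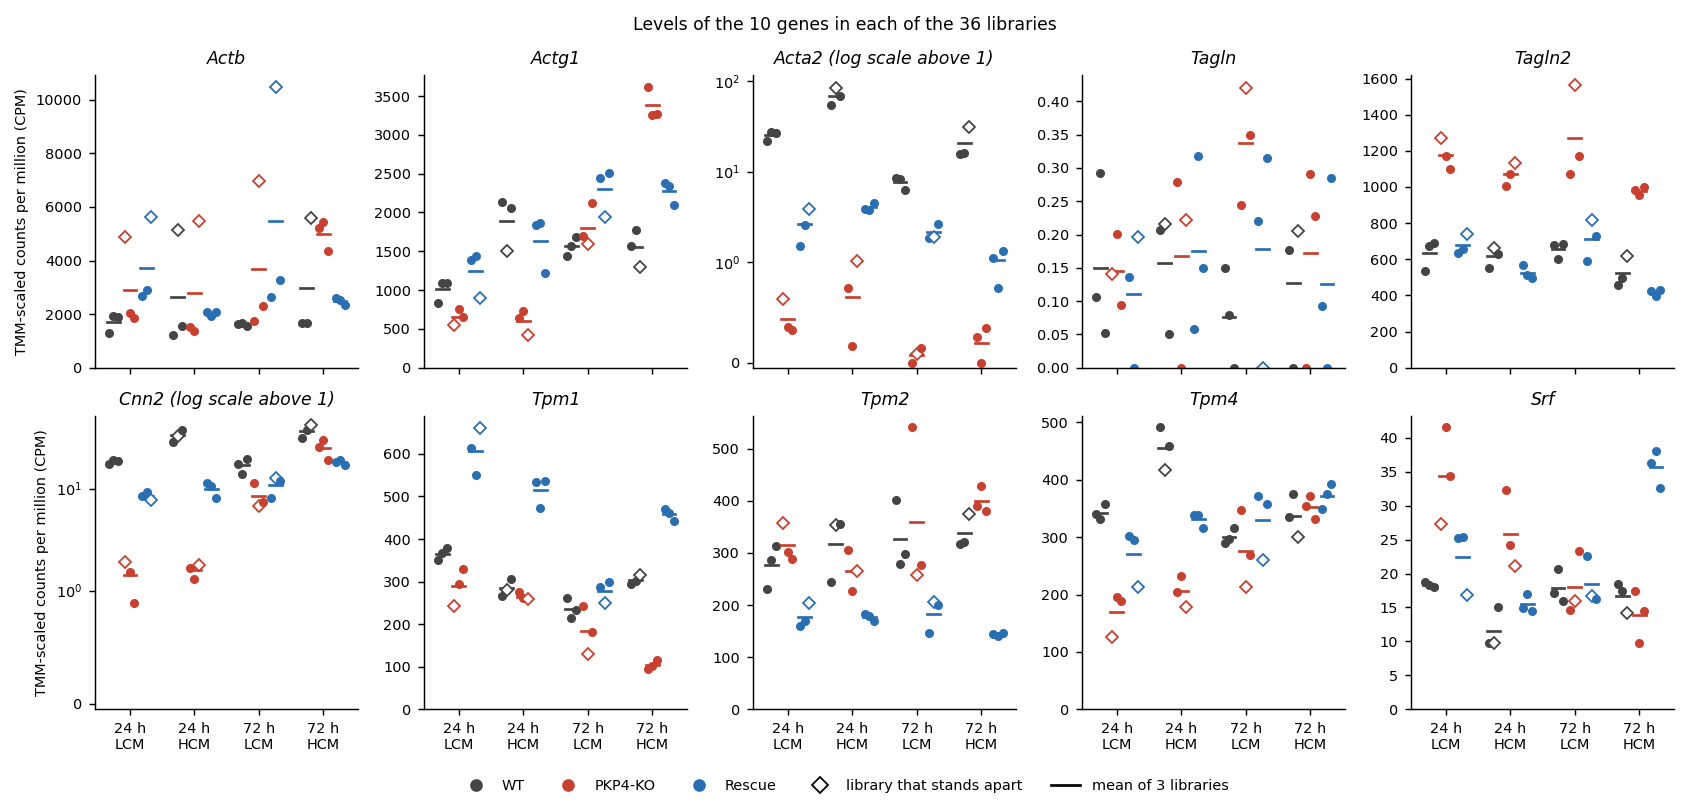
Level of each of the 10 genes in each of the 36 libraries, in TMM-scaled CPM, by time and medium. Circles are libraries, open diamonds the 7 libraries that stand apart, and bars the mean of 3 libraries. Acta2 sits between 6.23 and 83.6 CPM in WT libraries and at or below 1.03 CPM in PKP4-KO libraries.

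Per kilobase of gene length and by the median over groups, the cytoplasmic actins stood highest and the smooth muscle genes lowest. The median over the 12 group means was 1066 CPM per kb for Actb, the beta actin, and 602 for Actg1, the gamma actin. It was 320 CPM per kb for Tagln2, transgelin-2, and 102, 77.4 and 44.2 for Tpm2, Tpm4 and Tpm1, the tropomyosins that wind along actin filaments. Srf and Cnn2, the latter the calponin of non-muscle cells, stood at 6.29 and 5.68 CPM per kb and Acta2, smooth muscle actin, at 1.09. The lengths were those deposited, 2.909 kb for Tpm2, 4.269 kb for Tpm4 and 6.485 kb for Tpm1. The canonical transcripts of these genes have 3271, 2158 and 2190 bases, so the order of the tropomyosins depends on the length used. The order of Srf (2.893 kb, 4122 bases) and Cnn2 (2.46 kb, 2467 bases) does so too. Tagln, the smooth muscle transgelin, had 0 to 7 counts in every library, none in 7 of them, and was not tested. The other 9 genes were among the 15114 tested.

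The comparison of PKP4-KO with WT cells asked what loss of PKP4 does to these genes. Acta2 and Cnn2 were lower and Tagln2 was higher in PKP4-KO cells in all 4 culture conditions, while Actg1, Tpm1, Tpm4 and Srf differed only in some of them and Tpm2 in none. A gene was called where the quasi-likelihood test of edgeR gave an adjusted p (Benjamini-Hochberg, over all tested genes) under 0.05. In HCM 6 of the 9 tested members were called after 24 h, 2 up and 4 down, and 5 after 72 h, 2 up and 3 down. Of all tested genes 42.8% (20.7% up, 22.2% down) and 51.8% (21.9% up, 29.9% down) were called there. In LCM 6 members were called after 24 h, 2 up and 4 down, and 3 after 72 h, 1 up and 2 down, beside 40.2% (19.7% up, 20.6% down) and 45.1% (21.3% up, 23.8% down) of all tested genes. The members' counts thus lay on both sides of the share of all genes, and nothing is read from the counts alone. The libraries of the genotypes did not overlap for 6, 6, 7 and 4 of the 9 members, beside 46.7%, 58.2%, 50.6% and 55.2% of all tested genes.

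**Figure D2:**
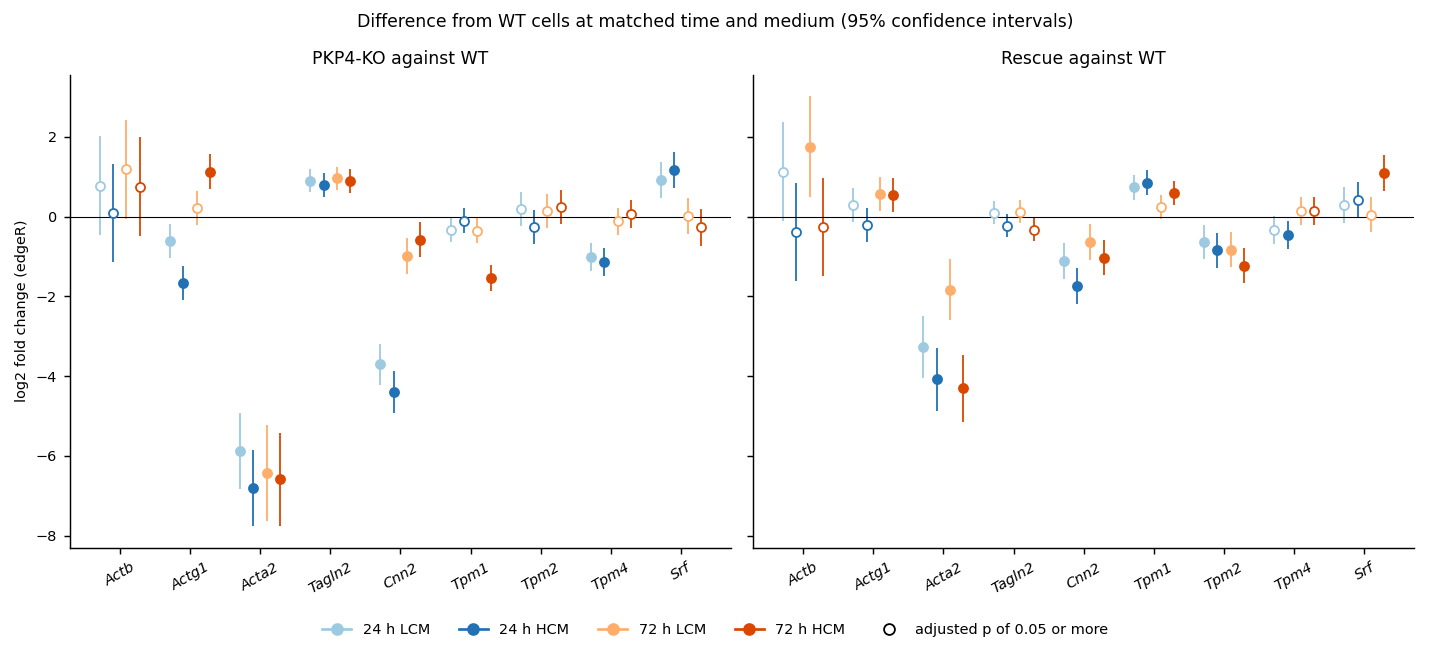
Log2 fold changes of the 9 tested genes in PKP4-KO cells (left) and Rescue cells (right) against WT cells at matched time and medium, with 95% confidence intervals from edgeR; filled circles passed an adjusted p of 0.05. Acta2 sits lowest in both panels, between -5.88 and -6.81 in PKP4-KO and between -1.83 and -4.30 in Rescue cells.

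Acta2 (chromosome 19, 34217737 to 34232990, minus strand, GRCm39) was the member that differed most. At 24 h HCM its counts were 1064, 1163 and 1332 in WT libraries (54.8, 83.6 and 67.9 CPM) and 16, 4 and 14 in PKP4-KO libraries (0.746, 0.167 and 1.03 CPM). After 72 h in HCM they were 263, 277 and 304 in WT and 2, 0 and 3 in PKP4-KO libraries. In LCM, WT libraries had 410, 467 and 518 counts at 24 h and 169, 207 and 137 at 72 h, against 9, 7 and 7 and then 0, 1 and 3 in PKP4-KO libraries. The highest PKP4-KO library lay far below the lowest WT library in each condition, and the 72 h PKP4-KO libraries lay at or below the floor of 3 counts used here. Taken over the summed counts and scaled for library size, WT cells held 116 times the Acta2 of PKP4-KO cells at 24 h HCM (95% counting interval 83.2 to 168) and 60.9 times at 24 h LCM (40.4 to 96.3). At 72 h, where the PKP4-KO sums were 5 and 4 counts, the ratios were 91.0 in HCM (38.8 to 281) and 92.3 in LCM (35.8 to 340). These intervals cover counting error only, and the adjusted p-values of the quasi-likelihood test were 8.77e-13 and 3.39e-11 for these 24 h comparisons and 1.66e-10 and 5.66e-10 for those at 72 h.

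In Rescue cells Acta2 lay between these levels. In HCM WT cells held 16.5 times the Acta2 of Rescue cells after 24 h (95% counting interval 14.5 to 19) and 18.6 times after 72 h (14.6 to 24), and in LCM 10.1 times (8.52 to 12) and 3.60 times (2.96 to 4.41). Against PKP4-KO cells, Acta2 was higher in Rescue cells by 2.73 (SE 0.43), 2.28 (SE 0.69), 2.61 (SE 0.46) and 4.59 (SE 0.63) on the log2 scale, with adjusted p-values of 7.79e-06, 0.00484, 5.37e-05 and 1.03e-06. These comparisons share the WT or the PKP4-KO libraries with the one above and are not independent of it.

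The genes around Acta2 differed along with it. The 60 tested genes within 5 Mb of Acta2 had a median log2 fold change in PKP4-KO against WT cells of -0.70, -1.12, -0.93 and -0.89, with 75% to 85% of them below 0. For the other 462 tested genes of chromosome 19 the medians were -0.24, -0.38, -0.18 and -0.23, and for all tested genes between -0.07 and 0.03. In Rescue against WT cells the medians of the 60 neighbours were -0.14, 0.26, -0.19 and -0.17. The part of the neighbourhood in the Acta2 difference was not tested. Stambpl1 overlaps Acta2 on the opposite strand and had 43 to 636 counts per library, with log2 fold changes of -0.34, -0.46, -0.24 and -0.64; whether counting used the strand is not given in the sources used here.

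Markers of smooth muscle and pericytes were looked at beside Acta2. Of the 6 in the list, Myh11, Des and Cnn1 had at most 1 count in each WT library at 24 h HCM, and Notch3, which keratinocytes also express, made up nearly all of the list's sum. That sum was 24.6 to 25.6 CPM in WT, 2.44 to 3.82 in PKP4-KO and 23.2 to 28.3 in Rescue libraries at 24 h HCM. In bulk RNA, fewer cells of a type and less RNA per cell cannot be told apart.

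Cnn2 (chromosome 10, 79824410 to 79831896, plus strand), which binds and stabilises actin filaments, was also lower in PKP4-KO cells, mainly at 24 h. Its level at 24 h HCM was 29.0, 33.1 and 38.1 CPM in WT and 1.68, 1.30 and 1.77 CPM in PKP4-KO libraries, and at 24 h LCM it was 17.3, 19.1 and 18.8 against 1.90, 1.51 and 0.890 CPM. After 72 h in HCM it was 31.8, 37.6 and 42.0 CPM in WT and 25.7, 29.9 and 19.1 CPM in PKP4-KO libraries, and at 72 h LCM 17.7, 13.9 and 19.4 against 11.5, 6.79 and 7.40 CPM. The groups did not overlap at either time, but the gap closed from about an order of magnitude at 24 h to less than the range of the WT libraries at 72 h HCM. On the log2 scale Cnn2 was lower by 4.41 (SE 0.25, adjusted p = 3.54e-14) at 24 h HCM, a fold of 21.2, and by 3.70 (SE 0.25, adjusted p = 1.66e-12) at 24 h LCM, a fold of 13. At 72 h the decreases were 0.58 (SE 0.21, adjusted p = 0.0258) in HCM and 0.99 (SE 0.22, adjusted p = 0.000549) in LCM. The call at 72 h HCM did not hold without PKP4-KO replicate 3, WT replicate 2 or WT replicate 3 (decrease of at least 0.43, highest adjusted p = 0.143), without the 7 libraries that stand apart (adjusted p = 0.0544) or with DESeq2 (adjusted p = 0.0596).

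For Cnn2 the change of this effect with time was itself tested. The effect at 72 h minus that at 24 h was 3.83 in HCM (SE 0.32, adjusted p = 5.14e-10) and 2.72 in LCM (SE 0.33, adjusted p = 2.08e-06). Within PKP4-KO cells Cnn2 rose from 24 h to 72 h by 3.98 (adjusted p = 3.4e-13) in HCM and by 2.6 (adjusted p = 4.14e-09) in LCM, folds of 15.8 and 6.07. In Rescue cells Cnn2 stayed below WT cells in all 4 conditions, with log2 fold changes of -1.74, -1.03, -1.11 and -0.64 (adjusted p = 7.03e-07, 0.000459, 0.000289 and 0.0229). The call at 72 h LCM did not hold without Rescue replicate 1, WT replicate 1 or WT replicate 3 (highest adjusted p = 0.141). At 24 h Cnn2 was higher in Rescue than in PKP4-KO cells by 2.67 in HCM (adjusted p = 5.07e-10) and 2.59 in LCM (adjusted p = 2.03e-09). At 72 h this comparison gave no call, with -0.45 in HCM (adjusted p = 0.0673) and 0.35 in LCM (adjusted p = 0.211). The HCM value depended on the setting: it was -0.53 with only these groups in the fit (adjusted p = 0.00645), -0.58 with DESeq2 (adjusted p = 0.0132) and 0.74 without TMM factors (adjusted p = 0.00193). The LCM value without TMM factors was 0.67 (adjusted p = 0.0105).

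Tagln2 (chromosome 1, 172327426 to 172334947, plus strand), the transgelin of epithelial and many other cells, rose in PKP4-KO cells in every condition by similar amounts. In 24 h HCM it lay between 554 and 663 CPM in WT and between 1005 and 1132 CPM in PKP4-KO libraries, and at 72 h HCM between 460 and 618 and between 954 and 998 CPM. In LCM the WT libraries lay between 534 and 689 CPM and the PKP4-KO libraries between 1071 and 1564 CPM over both times. No PKP4-KO library reached down to a WT library. The log2 fold changes were 0.80, 0.90, 0.90 and 0.95 (SE 0.14 each), with adjusted p-values of 3.9e-05, 7.98e-06, 1.02e-05 and 3.93e-06. Rescue libraries lay between 399 and 819 CPM, with log2 fold changes of -1.02, -1.23, -0.80 and -0.83 against PKP4-KO cells (adjusted p = 1.11e-06, 4.46e-08, 5.55e-05 and 2.7e-05). Against WT cells the Rescue values were -0.23, -0.33, 0.10 and 0.12, none past the threshold (lowest adjusted p = 0.0718). The 76 tested genes within 5 Mb of Tagln2 had median log2 fold changes of 0.11, 0.26, 0.14 and 0.39 in PKP4-KO against WT cells. For the other 791 tested genes of chromosome 1 the medians were 0.085, -0.097, 0.029 and 0.045. In Rescue against WT cells the medians of the 76 were 0.18, 0.23, 0.39 and 0.51, and their part in the Tagln2 values was not tested. The size of the Tagln2 increase at 72 h HCM rests on the scaling: without TMM factors it was 0.16 (adjusted p = 0.181) against WT cells, and in Rescue against PKP4-KO cells -0.05 (adjusted p = 0.652).

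Actg1 (chromosome 11, 120236512 to 120239617, minus strand) changed in opposite directions at 24 h and 72 h. Its level at 24 h HCM was 2137, 1499 and 2052 CPM in WT and 636, 732 and 427 CPM in PKP4-KO libraries. After 72 h in HCM it was 1572, 1776 and 1302 CPM in WT and 3618, 3259 and 3273 CPM in PKP4-KO libraries. The 2 genotypes did not overlap at either time, and the PKP4-KO group mean was the lowest of all 12 groups at 24 h HCM, with and without TMM factors. At 72 h HCM it was the highest with these factors (3383 CPM), but without them it was 1750 CPM, below 4 other groups, among them Rescue cells in 72 h HCM and 72 h LCM (2654 and 2480 CPM). Actg1 fell by 1.66 (SE 0.21, adjusted p = 1.87e-07) at 24 h HCM, a fold of 3.17, and rose by 1.13 (SE 0.21, adjusted p = 5.8e-05) at 72 h HCM, a fold of 2.18, although without TMM factors the latter was 0.33 (adjusted p = 0.306). The difference between the 72 h and the 24 h effect was 2.79 (SE 0.30, adjusted p = 3.32e-08).

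In LCM the Actg1 differences were smaller. The WT libraries held 840, 1097 and 1095 CPM at 24 h and 1438, 1569 and 1687 CPM at 72 h, and the PKP4-KO libraries 553, 761 and 654 CPM and then 1693, 1596 and 2123 CPM. At 24 h LCM Actg1 was lower in PKP4-KO cells by 0.62 on the log2 scale (SE 0.21, adjusted p = 0.0171), a call that did not hold without PKP4-KO replicate 1, WT replicate 2 or WT replicate 3 (highest adjusted p = 0.0938). At 72 h LCM the groups overlapped and the log2 fold change was 0.21 (adjusted p = 0.424). Rescue cells at 24 h held more Actg1 than PKP4-KO cells, by 1.45 in HCM (adjusted p = 1.78e-06) and 0.92 in LCM (adjusted p = 0.000849), and their difference from WT cells was -0.21 and 0.30 (adjusted p = 0.529 and 0.325). At 72 h HCM Actg1 was lower in Rescue than in PKP4-KO cells by 0.58 (adjusted p = 0.0162), but without TMM factors the value was 0.60 in the opposite direction (adjusted p = 0.054), and the call did not hold without Rescue replicate 3 or PKP4-KO replicate 1 (highest adjusted p = 0.0626). At 72 h Rescue cells held more Actg1 than WT cells, by 0.55 in HCM (adjusted p = 0.0378) and 0.56 in LCM (adjusted p = 0.0391). These calls did not hold without any of 4 of the 6 libraries in HCM and any of 5 of the 6 in LCM (highest adjusted p = 0.178 and 0.137).

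Actg1 shares sequence with other genes, which limits how its counts can be read. Of its transcript's 50-base windows, 83.9% occur also in transcripts of other genes of the reference, and 50.1% in genes of the deposited counts. The processed pseudogene Gm12715 on chromosome 4 shares 45.2% of the windows and carried 547 to 7038 counts, which is 9.02% to 13.4% of the Actg1 count in every library. Adding the counts of the sharing pseudogenes to Actg1 left 109 of the 110 calls over all members and comparisons in place. Actb shares 14.2% of its windows and Acta2 0.256%. The coding sequences of Actb and Actg1 are identical at 88.6% of 1125 bases, and those of Actb and Acta2 at 83.3%.

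Actb (chromosome 5, 142888870 to 142892509, minus strand), the most abundant member, differed more between libraries of a group than between genotypes. Its 24 h HCM libraries stood at 1236, 5146 and 1554 CPM in WT and at 1536, 1380 and 5474 CPM in PKP4-KO libraries. Its 72 h HCM libraries stood at 1683, 1660 and 5597 CPM in WT and at 5200, 5445 and 4366 CPM in PKP4-KO libraries. The high library of each mixed group is 1 of the 7 that stand apart: in all 7 of them Actb exceeded the other libraries of the group, by 2.03 to 3.75 times their mean, while Actg1 lay below the others in all 7, at 0.624 to 0.837 of their mean. Tagln2 lay above the others in all 7 (1.09 to 1.4 times) and Tpm4 below in all 7 (0.659 to 0.876).

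**Figure D3:**
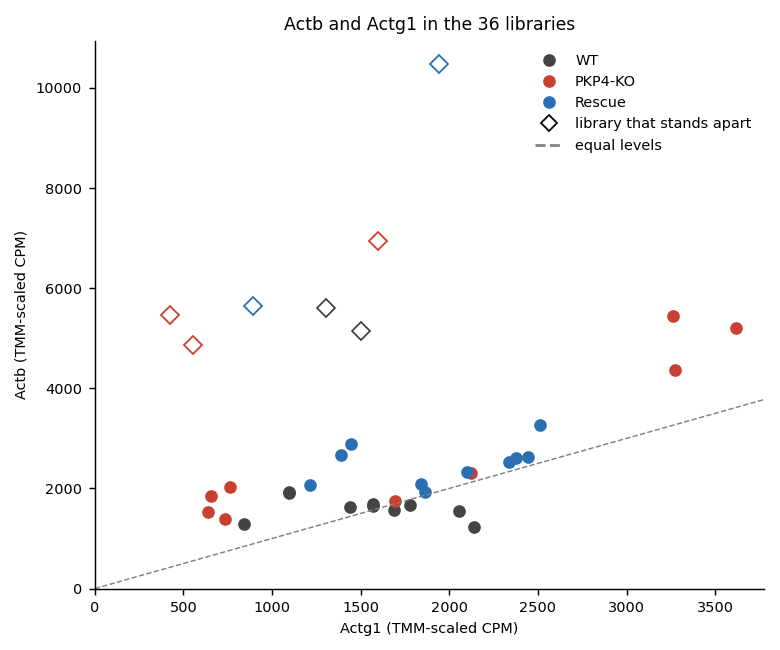
Actb against Actg1 in the 36 libraries, both in TMM-scaled CPM, with genotypes in colour and the 7 libraries that stand apart as open diamonds; the dashed line marks equal levels. The ratio of Actb to Actg1 lies between 3.43 and 12.8 in those 7 libraries and between 0.578 and 2.83 in the other 29.

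In the comparison of PKP4-KO with WT cells Actb had log2 fold changes of 0.08, 0.75, 0.77 and 1.18 (SE 0.60 each, adjusted p = 0.939, 0.3, 0.316 and 0.111). Without the 7 libraries the value at 72 h HCM was 1.60 (adjusted p = 5.55e-09) and those in the other conditions, in the same order, were 0.04, 0.16 and 0.31, none past the threshold. At 72 h HCM this difference passed also without WT replicate 3 alone (1.57, adjusted p = 0.0445). Its size depends on the scaling: over all libraries the group means there were 5004 CPM in PKP4-KO and 2980 CPM in WT cells with TMM factors, and 2576 and 2394 CPM without them. The 7 libraries were picked against their own group, which cannot flag a group whose libraries shift alike. Ribosomal protein genes held 24.2% to 26.5% of the counts in PKP4-KO libraries at 72 h HCM, and 7.48% to 19.9% in all other groups. The part of this in the Actb difference was not tested. Rescue cells differed from WT cells by 1.75 at 72 h LCM (SE 0.61, adjusted p = 0.028), a call that did not hold without Rescue replicate 2 (0.87) or without any of the 3 WT replicates (highest adjusted p = 0.326). In HCM the Rescue values were -0.39 and -0.26, and without the 7 libraries they were 0.53 (adjusted p = 0.0114) and 0.59 (adjusted p = 0.00419), so the direction for Actb in Rescue cells changes with these libraries. The part of the shift in these libraries in the Actb values was not tested beyond leaving them out.

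Among the tropomyosins Tpm4, a short non-muscle form, was lower in PKP4-KO cells at 24 h. In 24 h HCM it stood at 493, 416 and 458 CPM in WT and at 205, 233 and 179 CPM in PKP4-KO libraries, and at 24 h LCM at 340, 331 and 357 against 126, 195 and 188 CPM. The groups were well separated at 24 h and overlapped at 72 h, where all WT and PKP4-KO libraries lay between 213 and 375 CPM. Tpm4 fell by 1.15 (SE 0.17, adjusted p = 2.72e-06) at 24 h HCM and by 1.01 (SE 0.17, adjusted p = 2.27e-05) at 24 h LCM. At 72 h the values were 0.06 in HCM (adjusted p = 0.771; -0.72 without TMM factors, adjusted p = 0.016) and -0.12 in LCM (adjusted p = 0.57). The difference of the effects was 1.21 in HCM (SE 0.24, adjusted p = 0.00035; 0.36 without TMM factors, adjusted p = 0.43) and 0.89 in LCM (SE 0.24, adjusted p = 0.0238). That in LCM did not hold without PKP4-KO 72 h replicate 1, PKP4-KO 24 h replicate 1, WT 72 h replicate 2 or WT 24 h replicate 3 (0.69 to 1.05 over all libraries left out, highest adjusted p = 0.109). At 24 h Tpm4 was higher in Rescue than in PKP4-KO cells, by 0.69 in HCM (adjusted p = 0.00168) and by 0.67 in LCM (adjusted p = 0.00262), and it was lower than in WT cells by 0.46 at 24 h HCM (adjusted p = 0.0486). The last call did not hold when any of its 6 libraries was left out (highest adjusted p = 0.154).

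Tpm1, which also encodes the muscle tropomyosins, followed the opposite order in time. At 72 h HCM it stood at 295, 302 and 315 CPM in WT, at 95, 102 and 117 CPM in PKP4-KO and at 471, 460 and 443 CPM in Rescue libraries. The 3 genotypes did not overlap and Rescue cells were highest. Tpm1 was lower in PKP4-KO than in WT cells by 1.54 (SE 0.15, adjusted p = 3.08e-09), a fold of 2.91, and higher in Rescue than in PKP4-KO cells by 2.13 (SE 0.16, adjusted p = 6.47e-12), a fold of 4.38. In the other conditions Rescue cells exceeded PKP4-KO cells by 0.96 at 24 h HCM (adjusted p = 6.9e-06), 1.07 at 24 h LCM (adjusted p = 1.82e-06) and 0.59 at 72 h LCM (adjusted p = 0.00218; 0.55 with only these groups in the fit, adjusted p = 0.144). In PKP4-KO cells at 24 h the difference from WT cells was -0.10 in HCM (adjusted p = 0.623) and -0.34 in LCM (adjusted p = 0.0712), and at 72 h LCM it was -0.36 (adjusted p = 0.0545). The effect at 72 h minus that at 24 h in HCM was -1.44 (SE 0.21, adjusted p = 8.11e-06). At 24 h Rescue cells held 614, 549 and 660 CPM in LCM and 535, 474 and 536 CPM in HCM, above the WT libraries at 350, 367 and 379 CPM and 267, 280 and 307 CPM. These are increases of 0.73 (adjusted p = 0.000488) and 0.85 (adjusted p = 9.62e-05) against WT cells, beside 0.59 at 72 h HCM (adjusted p = 0.00308) and 0.24 at 72 h LCM (adjusted p = 0.248).

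Tpm2, the beta tropomyosin, separated Rescue cells from the rest. At 72 h HCM it stood at 317, 321 and 374 CPM in WT, at 389, 429 and 380 CPM in PKP4-KO and at 145, 140 and 147 CPM in Rescue libraries. Between PKP4-KO and WT cells the log2 fold changes were -0.26, 0.24, 0.19 and 0.14, none past the threshold (lowest adjusted p = 0.336), although without TMM factors that at 72 h HCM was -0.51 (adjusted p = 0.0194). In Rescue against WT cells Tpm2 was lower by 0.84, 1.23, 0.64 and 0.83 (adjusted p = 0.0035, 5.08e-05, 0.0245 and 0.00276). In Rescue against PKP4-KO cells it was lower by 0.59, 1.47, 0.83 and 0.96 (adjusted p = 0.0252, 1.26e-06, 0.00262 and 0.000498), and without TMM factors the value at 72 h HCM was -0.29 (adjusted p = 0.159). With only these groups in the fit that at 72 h LCM was -1.0 (adjusted p = 0.0604). The weakest of these, against WT cells at 24 h LCM and against PKP4-KO cells at 24 h HCM, did not hold without any of 4 of their 6 libraries (highest adjusted p = 0.105 and 0.118). These were Rescue replicates 1 and 2 and WT replicates 2 and 3 for the former, and Rescue replicates 2 and 3 and PKP4-KO replicates 1 and 3 for the latter.

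The genes around Tpm2 were lower in Rescue cells as well. The 104 tested genes within 5 Mb of it had median log2 fold changes of -0.69, -0.55, -0.55 and -0.62 in Rescue against WT cells, with 76.9% to 86.5% of them below 0, beside 0.08 to 0.17 for the other 836 tested genes of chromosome 4. Against PKP4-KO cells the medians of the 104 were -0.84, -0.74, -0.77 and -0.79, and in PKP4-KO against WT cells they lay between 0.20 and 0.30. The part of the neighbourhood in the Tpm2 difference was not tested. At 24 h the genes around Cnn2 and Tpm4 went the opposite way from these members in PKP4-KO against WT cells. The 184 tested genes within 5 Mb of Cnn2 had medians of 0.245 in HCM and 0.294 in LCM. Those of the 124 around Tpm4 were 0.296 and 0.249. For the 147 around Actg1 the medians were -0.029 and 0.043 at 24 h, and -0.164 at 72 h HCM. For the 75 around Tpm1 the median at 72 h HCM was -0.126.

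Srf (chromosome 17, 46857767 to 46867119, minus strand), the transcription factor itself, rose in PKP4-KO cells at 24 h, when Acta2, Cnn2, Actg1 and Tpm4 were lower. Its 24 h HCM level was 9.79, 9.84 and 15.0 CPM in WT and 32.3, 24.2 and 21.1 CPM in PKP4-KO libraries, and at 24 h LCM it was 18.7, 18.3 and 18.1 against 27.3, 41.6 and 34.4 CPM. No PKP4-KO library at 24 h lay within the WT range. Srf was higher by 1.16 (SE 0.22, adjusted p = 8.32e-05) in HCM and by 0.91 (SE 0.22, adjusted p = 0.00137; 0.69 without TMM factors, adjusted p = 0.0785) in LCM. At 72 h the values were -0.27 in HCM (adjusted p = 0.316; -1.05 without TMM factors, adjusted p = 0.00476) and 0.01 in LCM (adjusted p = 0.975). The difference of the effects in HCM was -1.43 (SE 0.31, adjusted p = 0.00102) and in LCM -0.90 (SE 0.31, adjusted p = 0.0933). The 78 tested genes within 5 Mb of Srf were also higher in PKP4-KO cells at 24 h, with median log2 fold changes of 0.44 in HCM and 0.53 in LCM, beside 0.16 and 0.24 for the other 672 tested genes of chromosome 17. At 72 h the medians of the 78 were 0.03 and 0.34, and their part in the Srf values was not tested.

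Rescue cells differed from both other genotypes in Srf at 72 h HCM. Their libraries stood at 36.3, 38.0 and 32.5 CPM, above WT libraries at 18.4, 17.5 and 14.3 CPM and PKP4-KO libraries at 17.4, 9.74 and 14.4 CPM. This is an increase of 1.09 against WT cells (SE 0.22, adjusted p = 0.000319) and of 1.36 against PKP4-KO cells (SE 0.22, adjusted p = 8.22e-06). At 24 h Srf was lower in Rescue than in PKP4-KO cells by 0.74 in HCM (adjusted p = 0.00701) and 0.61 in LCM (adjusted p = 0.0282). The first call did not hold without PKP4-KO replicate 1 (decrease of 0.55, adjusted p = 0.0708) or without TMM factors (adjusted p = 0.0787), nor the second without Rescue replicate 3, PKP4-KO replicate 2 or PKP4-KO replicate 3 (highest adjusted p = 0.164). By group mean Srf was highest in Rescue cells at 72 h HCM (35.6 CPM), PKP4-KO cells at 24 h LCM (34.4 CPM) and PKP4-KO cells at 24 h HCM (25.8 CPM). The libraries of the first 2 overlap, as do those of the last 2, and the other 9 groups lie between 9.74 and 25.4 CPM.

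In all, 5, 6, 4 and 5 of the tested members were called in Rescue against WT cells in the 4 culture conditions, where 23.2%, 36.2%, 24.8% and 32.4% of all tested genes were called. In Rescue against PKP4-KO cells 8, 6, 8 and 4 were called, beside 40.8%, 66.7%, 33.7% and 41.5% of all tested genes. The median log2 fold change of all tested genes in the latter comparison at 72 h HCM was 0.20, and it was 1.37 without TMM factors, where 5 members were higher and 0 lower in place of 3 and 3. In PKP4-KO against WT cells at 72 h HCM the median was -0.07, or -0.83 without TMM factors, where 6 members were called and all 6 were lower. In the same setting the share of higher genes among those called fell from 42.2% to 13.5%.

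The media and times were then compared within each genotype. High calcium raised Acta2 and Cnn2 in WT cells at both times, by 1.44 (adjusted p = 0.00362) and 0.86 (adjusted p = 0.00541) at 24 h and by 1.45 (adjusted p = 0.00298) and 1.13 (adjusted p = 0.000256) at 72 h. Without TMM factors the Cnn2 value at 24 h was 0.57 (adjusted p = 0.0554). At 24 h high calcium also raised Actg1 in WT cells, by 0.91 (adjusted p = 0.00261; 0.65 without TMM factors, adjusted p = 0.124), and lowered Srf by 0.67 (adjusted p = 0.0396). The Srf call rested on its libraries: it held in 1 of the 6 fits that left out 1 library, that without WT 24 h HCM replicate 3, and with the replicate number as a block it was -0.66 (adjusted p = 0.0518). Of the 9 tested members 4 were called in WT cells at 24 h and 2 at 72 h, beside 14.2% and 21.4% of all tested genes. Without TMM factors the split at 24 h was 1 higher and 3 lower, in place of 3 and 1. Among all called genes the share of higher ones there was 24.8%, in place of 54.3%.

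In PKP4-KO cells at 24 h none of the 9 was called by the quasi-likelihood test of edgeR or by DESeq2, and none had an unadjusted p under 0.05, beside 2.83% of all tested genes called. In Rescue cells at 24 h none was called by either tool, with Tagln2 and Srf at an unadjusted p of 0.0168 and 0.019, beside 12% of all tested genes. The difference between the calcium effects in PKP4-KO and WT cells at 24 h was -1.04 for Actg1 (SE 0.29, adjusted p = 0.0371), the 1 member called, beside 4.02% of all tested genes. That call held in 3 of the 12 fits with 1 library left out (highest adjusted p = 0.128).

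At 72 h high calcium raised Cnn2 in PKP4-KO cells by 1.54 (adjusted p = 5.48e-06) and Actg1 by 0.91 (adjusted p = 0.00127; 0.20 without TMM factors, adjusted p = 0.564), and lowered Tpm1 by 0.82 (adjusted p = 0.000127) and Tagln2 by 0.38 (adjusted p = 0.0433). The Tagln2 call did not hold without any of the 3 HCM libraries or LCM replicate 2 (highest adjusted p = 0.27). In Rescue cells at 72 h high calcium raised Srf by 0.94 (adjusted p = 0.00184), Cnn2 by 0.74 (adjusted p = 0.0119) and Tpm1 by 0.72 (adjusted p = 0.000729) and lowered Tagln2 by 0.77 (adjusted p = 0.000196). The Cnn2 call did not hold without Rescue 72 h LCM replicate 1 (adjusted p = 0.0773). Each count is 4 of 9, beside 32.6% and 24.9% of all tested genes. The calcium effect on Tpm1 at 72 h was thus opposite in PKP4-KO and Rescue cells, and between PKP4-KO and WT cells it differed by -1.19 (SE 0.21, adjusted p = 0.000567; -1.11 with only these groups in the fit, adjusted p = 0.0557). Tpm1 was the 1 member called in this difference, beside 5.74% of all tested genes.

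**Figure D4:**
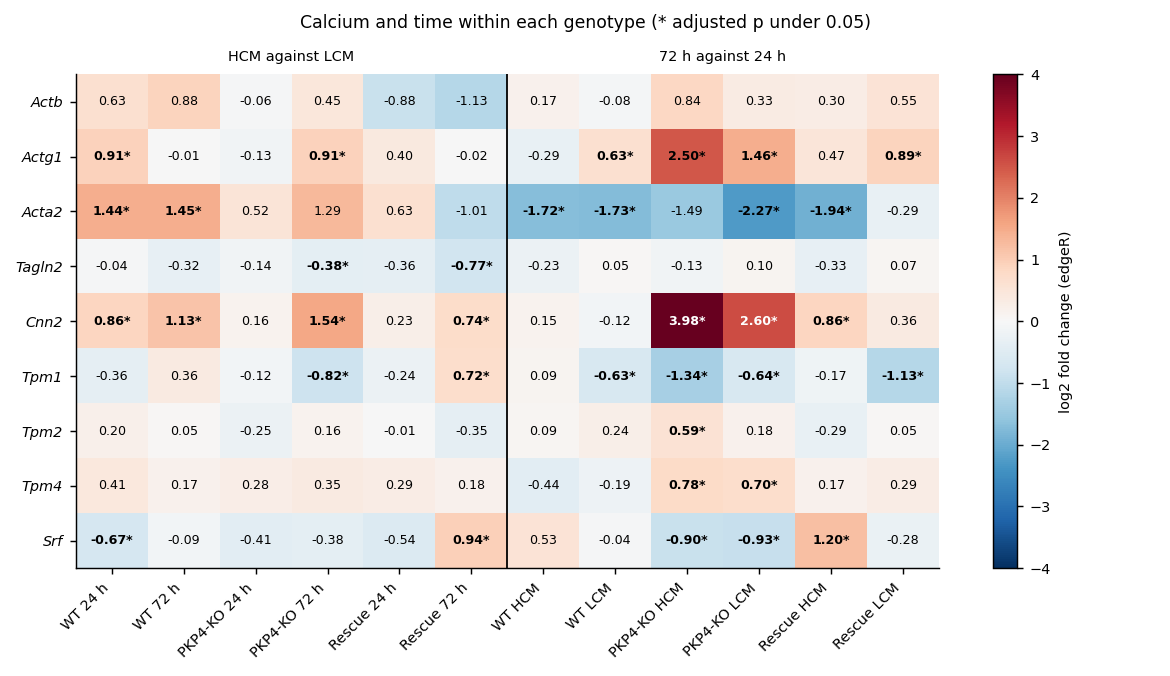
Log2 fold changes of the 9 tested genes for HCM against LCM (left 6 columns) and 72 h against 24 h (right 6 columns) within each genotype, from red (higher) to blue (lower); asterisks mark an adjusted p under 0.05. PKP4-KO cells between 24 h and 72 h HCM show the strongest colours, with Cnn2 at 3.98 and Actg1 at 2.5.

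From 24 h to 72 h, 6 of the 9 members changed in PKP4-KO cells in each medium, beside 55.8% of all tested genes in HCM and 26.1% in LCM. In HCM Actg1 rose by 2.5 (adjusted p = 1.88e-10), Tpm4 by 0.78 (adjusted p = 0.000373; -0.30 without TMM factors, adjusted p = 0.293) and Tpm2 by 0.59 (adjusted p = 0.019). Without TMM factors Tpm2 passed in the opposite direction, at -0.48 (adjusted p = 0.025), and 2 members were higher and 5 lower, in place of 4 and 2. In that setting 12.6% of all called genes were higher, in place of 43.6%. The median log2 fold change of all tested genes was -1.16, in place of -0.095. Tpm1 fell by 1.34 (adjusted p = 3.24e-08) and Srf by 0.90 (adjusted p = 0.00131). The Tpm2 call did not hold without PKP4-KO 72 h HCM replicate 2 or PKP4-KO 24 h HCM replicate 2 (highest adjusted p = 0.0986). In LCM Actg1 rose by 1.46 (adjusted p = 4.67e-06) and Tpm4 by 0.70 (adjusted p = 0.00251), Srf fell by 0.93 (adjusted p = 0.00176) and Tpm1 by 0.64 (adjusted p = 0.00176). With only these groups in the fit the calls of Tpm4 (0.77, adjusted p = 0.0811) and Tpm1 (-0.58, adjusted p = 0.175) were lost. Acta2 was lower by 2.27 (adjusted p = 0.0323), with 23 and 4 counts in all, a call that did not hold without PKP4-KO 72 h LCM replicate 1 or 2 or PKP4-KO 24 h LCM replicate 1 (highest adjusted p = 0.142). Its libraries held 7 to 9 counts at 24 h and 0 to 3 at 72 h. Acta2 was tested here because the filter ran over all 12 groups, and WT libraries held 137 to 1332 counts. Nothing is read from this call.

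In WT cells 1 member changed over time in HCM and 3 in LCM, beside 17.8% and 9.96% of all tested genes. Acta2 fell by 1.72 (adjusted p = 0.000746) in HCM and by 1.73 (adjusted p = 0.00139) in LCM, and in LCM Tpm1 fell by 0.63 (adjusted p = 0.00622) and Actg1 rose by 0.63 (adjusted p = 0.0496), a call that did not hold when any of its 6 libraries was left out (highest adjusted p = 0.238). In Rescue cells Acta2 fell by 1.94 (adjusted p = 0.000534), Srf rose by 1.20 (adjusted p = 0.000139) and Cnn2 by 0.86 (adjusted p = 0.00363) in HCM, which makes 3 members beside 24.3% of all tested genes. In LCM, Tpm1 fell by 1.13 (adjusted p = 3.19e-06) and Actg1 rose by 0.89 (adjusted p = 0.00391; 0.0531 as adjusted p without Rescue 24 h LCM replicate 3), 2 members beside 9.81%. The PKP4-KO effect changed between the times for 5 members in HCM and 2 in LCM, given above with each gene, beside 26.6% and 5.25% of all tested genes.

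The wider pathway was described by lists of related genes. Among 12 paralogues of the members 5 were tested, and at 24 h HCM 3 fell and 1 rose in PKP4-KO cells. Cnn3, the acidic calponin, fell by 5.53 (adjusted p = 3.37e-16), from 255 to 340 CPM in WT to 4.28 to 8.06 CPM in PKP4-KO libraries, and its values were -5.27, -3.99 and -2.34 at 24 h LCM, 72 h LCM and 72 h HCM, all called. Tmod3, which caps the pointed ends of filaments, fell by 1.21 and Tpm3 by 0.39, and Tmod2 rose by 2.13. Of 16 cytoskeletal targets of MRTF and SRF 12 were tested, and 7 were lower in each condition, with 2, 1, 1 and 3 higher. Of all tested genes 22.2%, 29.9%, 20.6% and 23.8% were lower there and 20.7%, 21.9%, 19.7% and 21.3% higher. Their median log2 fold change was -0.72, -0.56, -0.62 and -0.36, beside -0.002, -0.07, 0.003 and 0.03 for all tested genes. Ccn2, a secreted matrix-associated protein, fell by 7.03 (adjusted p = 4.89e-13) at 24 h HCM, from 87.2 to 158 CPM in WT to 0.920 to 1.07 CPM in PKP4-KO libraries, and held 16.0 to 18.2 CPM in Rescue libraries. Fhl1 and Fhl2, which are LIM domain proteins, fell by 1.33 and 1.25, and Cald1, the actin-binding caldesmon, fell by 1.20.

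The 9 immediate-early targets of TCF and SRF did not share a direction in HCM, while in LCM nearly all of those called were higher. At 24 h HCM 2 were higher and 3 lower and at 72 h HCM 1 higher and 2 lower, while in LCM 5 were higher and none lower at 24 h, and 7 higher and 1 lower at 72 h. The called shares of all tested genes were 42.8% and 51.8% in HCM and 40.2% and 45.1% in LCM, so that the HCM counts of 5 and 3 of 9 are near or below that background. Their medians were -0.25, -0.53, 1.0 and 1.5. Fos fell by 2.14 and Egr3 by 1.51 at 24 h HCM, and Egr1 rose by 1.09 and Nr4a1 by 0.71, all encoding transcription factors induced by stimuli. Of 7 cofactors of SRF and their inhibitor 6 were tested. At 24 h HCM Scai, the inhibitor of MRTF, fell by 3.03, from 38 to 82 counts in WT to 5 to 11 in PKP4-KO libraries, Elk3 by 0.95 and Elk1 by 0.61, and Mrtfa rose by 0.75. Of 14 genes for monomer binding proteins and formins 13 were tested, with 1 higher and 4 lower at 24 h HCM, beside 20.7% and 22.2% of all tested genes. The formins Diaph1 and Diaph2, which elongate filaments, fell by 1.12 and 1.14 and the profilin Pfn2 by 2.1, and Twf2, which binds monomers, rose by 1.37.

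**Figure D5:**
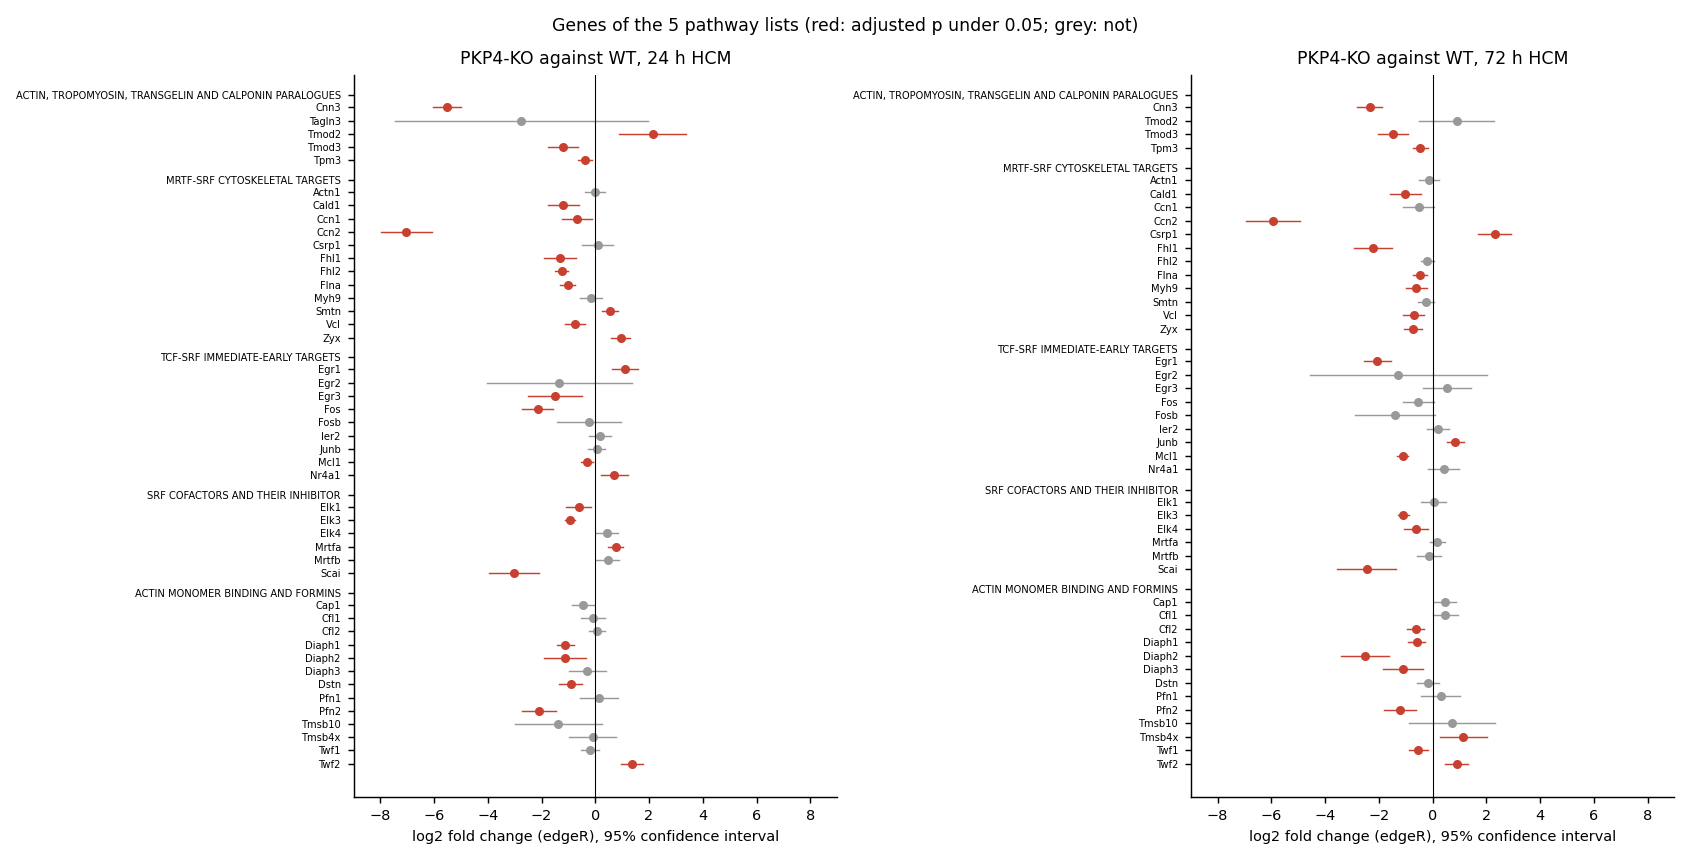
Log2 fold changes with 95% confidence intervals of the genes of the 5 pathway lists in PKP4-KO against WT cells at 24 h HCM (left) and 72 h HCM (right), in red where the adjusted p was under 0.05 and in grey elsewhere; genes with no counts in either group are left out. Ccn2 lies lowest in both panels, at -7.03 and -5.94.

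Across the 12 group means of log2 CPM the members did not move as 1 block. Pearson's r was 0.92 for Cnn2 and Tpm4, 0.76 for Actg1 and Tpm4 and 0.75 for Actg1 and Cnn2, and it was -0.78 for Tpm1 and Tpm2. These are descriptions over 12 groups that share genotypes and libraries. By the same measure the genes most like Acta2 were Atp10a (0.98), Syt16 (0.97) and B4galt4 (0.97), those most like Actg1 were Acer1 (0.96), Teddm3 (0.96) and Tincr (0.95), and those most like Srf were Tbpl1 (0.95), H2bc21 (0.93) and Zfp30 (0.89). Markers of suprabasal keratinocytes also differed at 72 h HCM, where PKP4-KO cells had the highest group mean of Actg1 with TMM factors but not without them. The summed level of these markers, TMM-scaled, was 10240 to 11370 CPM in PKP4-KO, 2498 to 4165 in WT and 2305 to 2840 in Rescue libraries. Their part in the Actg1 and Actb values was not tested, and Actb was not called there between PKP4-KO and WT cells.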

How the data were processed

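The authors added the transgene to the mm39 genome, aligned strand-specific poly(A) read pairs to it with HISAT2 2.1.0, discarded secondary alignments with SAMtools 1.10, assigned reads to Ensembl genes with featureCounts 2.0.0 and deposited whole-number counts per gene without normalization, beside a gene length. Settings for strand and for reads that fit several genes are not given in the sources used here. Groups came from the sample titles, which give WT, KO or GFP, LD or HD, and LCM or HCM. GFP was taken as Rescue, LD as 24 h and HD as 72 h, as these titles do not state the hours.

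From these counts, genes passing filterByExpr over the 12 groups (15114 of 55358) were fitted in R 4.3.3 with edgeR 4.0.16: TMM factors, 1 mean per group over all 36 libraries (24 residual degrees of freedom), glmQLFit and glmQLFTest, Benjamini-Hochberg adjustment over all tested genes, threshold 0.05. DESeq2 1.42.0 was an alternative. Recovery of known fold changes was tested on simulated counts. Ratios of summed counts carry exact 95% counting intervals; the floor is 3 counts. Named genes were all 10 members; from each pathway list up to 4 called genes with the largest change at 24 h HCM in PKP4-KO against WT cells; and the 3 protein-coding genes most like Acta2, Actg1 and Srf. Members, lists and tests were chosen with earlier results of these data known. The 7 libraries that stand apart were picked after the data were seen, by a median absolute log2 deviation above 0.4 from the other libraries of the group together with a rank correlation with gene length below -0.25. Positions are those of GRCm39, in which 98.9% of gene identifiers were found; promoter sequences are RefSeq's. Between libraries of a group the chi-square per gene was 7.03 to 266.03, so none is a copy. Deviations of same-numbered libraries from their group means were correlated with r of at least 0.3 throughout in 2 of 24 comparisons. These were Rescue against PKP4-KO at 72 h LCM, where replicate 2 stands apart in both groups, and HCM against LCM in WT cells at 24 h. The design names no pairing, and these correlations do not establish one.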

Additional observations from a re-analysis of the deposited data

Results flagged for a closer look

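In 9 cases the effect of 1 contrast differed between times or genotypes by a test of the difference itself (edgeR quasi-likelihood, p adjusted by Benjamini-Hochberg). The PKP4-KO effect at 72 h minus that at 24 h in HCM was 3.83 for Cnn2 (adjusted p = 5.14e-10), 2.79 for Actg1 (3.32e-08) and 1.21 for Tpm4 (0.00035), and it was -1.44 for Tpm1 (8.11e-06) and -1.43 for Srf (0.00102). In LCM it was 2.72 for Cnn2 (2.08e-06) and 0.89 for Tpm4 (0.0238). The calcium effect in PKP4-KO minus that in WT cells was -1.04 for Actg1 at 24 h (0.0371) and -1.19 for Tpm1 at 72 h (0.000567). Of the 12 fits with 1 library left out, the Actg1 calcium difference passed in 3 and the Tpm4 time difference in LCM in 8. Neither passed with only the groups compared in the fit, nor did the Tpm1 calcium difference. The Tpm4 time difference in HCM did not pass without TMM factors. With groups of 3 libraries, no outlier test was made for single genes; the 7 libraries that stand apart were picked by their deviation over genes outside the lists.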

How the results depend on the processing

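Of 252 values, 9 tested members in 28 comparisons, 110 passed the threshold; 101 of these still passed with no filter on low counts, 107 with the replicate block, 108 with DESeq2, 95 of 109 with only the groups compared in the fit, 106 without the 7 libraries that stand apart and 89 without TMM factors, where 20 were lost and 1 passed in the opposite direction (Tpm2 over time in PKP4-KO HCM, adjusted p = 0.025). Besides those given with each gene, the calls lost with only the groups compared were Cnn2 (adjusted p = 0.0904) and Actg1 (0.0506) in Rescue against WT at 72 h LCM, Srf in Rescue against PKP4-KO at 24 h LCM (0.0634), Srf for HCM against LCM in WT at 24 h (0.0752), Tagln2 and Cnn2 for the same at 72 h in PKP4-KO (0.188) and Rescue (0.0579), Actg1 over time in Rescue LCM (0.0663), Tpm4 in the time difference in LCM (0.1) and Actg1 in the calcium difference at 24 h (0.126). A minimum of 10 counts in every library removed Acta2 and kept 91 of 92. With only the groups compared, the filter ran on fewer libraries and left 249 of the 252 values, with 109 of the 110 calls. Over 1728 values with 1 library left out, 637 of 714 calls held. The PKP4-KO effects on Acta2, Tagln2, Cnn2 and Tpm4 at 24 h passed in all of these fits, save that Acta2 was absent under the minimum. The replicate block took Tpm4 in Rescue against WT cells at 24 h HCM (adjusted p = 0.0587), Srf for HCM against LCM in WT cells at 24 h (0.0518) and Actg1 for 72 h against 24 h in WT LCM (0.0563) past the threshold, added Tpm1 in PKP4-KO cells against WT at 72 h LCM (-0.36, adjusted p = 0.0428) and changed no other call; pairwise correlations of same-numbered libraries lay between -0.649 and 0.718. The causes of the changes below were not tested.

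Without TMM factors these changed sign: Actb for 72 h against 24 h in PKP4-KO HCM (-0.17), HCM against LCM in PKP4-KO at 72 h (-0.17), the time difference in HCM (-0.067), Rescue against PKP4-KO (0.18) and Rescue against WT at 72 h HCM (0.28); Actg1 (0.60) and Cnn2 (0.74, adjusted p = 0.00193) in Rescue against PKP4-KO at 72 h HCM; Tagln2 over time in PKP4-KO LCM (-0.28), in the time difference in HCM (-0.71, adjusted p = 0.000256) and in Rescue against WT at 72 h HCM (0.11); Tpm2 over time in PKP4-KO HCM (-0.48), HCM against LCM in PKP4-KO at 72 h (-0.54) and PKP4-KO cells against WT at 72 h HCM (-0.51); and Tpm4 in the same 3 (-0.30, -0.35 and -0.72). With DESeq2 Tagln2 over time in PKP4-KO HCM was 0.014 and Tpm4 in Rescue against PKP4-KO at 72 h HCM -0.052, which was -0.010 with only the groups compared. Without the 7 libraries Actb turned in Rescue against PKP4-KO (0.49) and WT (0.53) at 24 h HCM, in Rescue against WT at 72 h HCM (0.59) and in the calcium difference at 72 h (1.29), and Tpm2 for HCM against LCM in PKP4-KO at 72 h (-0.030).

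Member counts that moved were, for the time difference in LCM (2), 4 with DESeq2, 1 without TMM factors, 1 with no filter, 1 with only the groups compared and 4 without the 7 libraries. The calcium difference (1 each) had 0 at 24 h without TMM factors, with no filter and with only the groups compared, and at 72 h 2 with the minimum of 10, 2 with DESeq2, 0 with only the groups compared and 3 without the 7 libraries. From 24 h to 72 h, WT HCM (1) had 3 with DESeq2, 2 without TMM factors and 2 without the 7, Rescue HCM (3) had 7 with only the groups compared and 5 without the 7, Rescue LCM (2) had 1 without TMM factors and 1 with only the groups compared, and PKP4-KO LCM (6) had 3 with only the groups compared. HCM against LCM in Rescue at 24 h (0) had 1 without TMM factors and 3 without the 7. With only the groups compared, Rescue against PKP4-KO at 72 h LCM had 2 and Rescue against WT at 72 h LCM 3. Calls among all tested genes moved too, there from 3676 to 5876 over time in Rescue HCM and from 3952 to 1710 in PKP4-KO LCM. Without the 7 libraries they went from 867 to 3798 in the calcium difference at 72 h. Without TMM factors they fell from 2697 to 2617 over time in WT HCM, where the member count rose. Nothing is read from these member counts alone. Of the lists, paralogues in Rescue against PKP4-KO had 1 at 24 h HCM and 1 at 24 h LCM, SRF cofactors in PKP4-KO cells at 72 h HCM 6 and TCF-SRF targets at 24 h LCM 3 without TMM factors; TCF-SRF targets had 3 at 24 h HCM with no filter, and with the minimum of 10 5 at 72 h LCM and, in Rescue against PKP4-KO at 24 h HCM, 3.

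With 1 library left out, Actb ranged from -0.72 to 0.54 and -0.55 to 0.57 in Rescue against WT at 24 h and 72 h HCM, from -0.78 to 0.47, -0.068 to 0.94 and -0.31 to 1.42 in Rescue against PKP4-KO at 24 h HCM, 24 h LCM and 72 h LCM, from -0.26 to 1.60 in the time difference in HCM and from -0.77 to 0.42 in the calcium difference at 72 h. Tagln2 ranged from -0.15 to 0.030 for HCM against LCM in WT at 24 h and from -0.074 to 0.21 over time in PKP4-KO LCM, Tpm2 from -0.043 to 0.58 for HCM against LCM in PKP4-KO at 72 h and Tpm4 from -0.023 to 0.14 in PKP4-KO cells at 72 h HCM. Member counts ranged from 1 to 2 over time in Rescue LCM and in WT HCM, 0 to 1 and 1 to 2 in the calcium differences at 24 h and 72 h, 1 to 3 in the time difference in LCM and 2 to 4 in Rescue against WT at 72 h LCM. Tagln and, in PKP4-KO cells at 72 h, Acta2 lie at or near 3 counts per library, where these depths show no smaller difference.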
